A study of Mus musculus with 60 samples.

Results

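Hippocampal mRNA abundance levels 1 h after a saline injection were compared with those of naive mice of the same time point, on all probes of the Illumina MouseWG-6 v2 array. The members were 6 of the 60 hippocampal arrays of the series, taken by their labels: 3 arrays of saline-treated mice and 3 arrays of naive mice at 1 h. All were C57BL/6J male mice, 8 to 10 weeks old. The saline group received 1 intraperitoneal injection of saline and was killed by decapitation 1 h later. The naive group was the study's control without treatment. Per the study's methods, hippocampal RNA of a pair of mice was pooled for each array. The other 54 arrays (saline and naive mice at 2, 4 and 8 h, and mice given ketamine, memantine or phencyclidine) entered the fit for the estimate of the spread. The comparison addressed the effect of handling and injection, which every drug group of the study also received.

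Handling and injection are mild stressors in rodents. They activate hippocampal neurons, where calcium and cAMP signals act through CREB and other factors on immediate early genes such as *Fos*, *Arc* and the *Egr* family. They also raise corticosterone, which binds the glucocorticoid and mineralocorticoid receptors of hippocampal cells, and the receptor then acts on response elements near target genes such as *Per1*, *Sgk1*, *Fkbp5* and *Tsc22d3*. The hippocampus borders the choroid plexus of the ventricles, a secretory epithelium with a very high level of *Ttr* (transthyretin), and a dissected sample can hold a variable amount of it.

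The 6 arrays lay on 6 different slides, and no slide held both a naive and a saline array of 1 h. The median intensity of an array was 148 to 257 in naive mice and 168 to 306 in saline-treated mice. None of the 6 was among the 7 arrays of high background in the series. Between any 2 of the 6, the log2 signals of all probes correlated with r from 0.974 to 0.991. Among the 11 hippocampal principal neuron markers, *Wfs1*, a marker of CA1 pyramidal cells, had log2 signals from 10.63 to 11.34. *Prox1*, a marker of dentate granule cells, had signals from 9.47 to 10.00. *Neurod6*, on the same list, lay between 6.71 and 7.41, near the 6.94 of the median probe. The striatal receptor *Drd2* lay between 6.61 and 7.20. On the naive arrays the hippocampal list had a mean of 10.22, against 8.35 for striatum, 8.62 for thalamus and 9.66 for cortex markers. Of 6 striatum markers only 1 was dimmer than the median probe. The tissue label was taken as given and was not tested by these levels.

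Saline array 2 stood apart from the others. On it, 25 probes were more than 1 log2 unit above all other 5 arrays, against 0 to 12 probes on each of the others. The same 25 probes had their 2 highest signals among all 60 arrays on saline 1 h array 2 and on saline 2 h array 2, which lay on different slides. An unnamed probe had a log2 signal of 15.29 and 14.41 on these 2 arrays, and at most 7.61 on the other 58. The metallothionein *Mt3* had signals of 14.11 and 13.76, against at most 12.35 elsewhere, and the astrocyte filament *Gfap* 12.40 and 11.98, against at most 10.93. The others included the endocytic adaptor *Ap2a1*, the inositol hexakisphosphate kinase *Ip6k2*, the mitochondrial import protein *Tomm6* and the pentraxin *Nptx2*. *Capn5*, a calpain protease, was lowest of 60 on the same 2 arrays, at 9.14 and 9.81, against at least 10.83 elsewhere. For *Capn5* the difference between the groups was -0.72, and -0.03 without saline array 2. Over all probes, 533 (1.18%), the 25 included, had their 2 highest of 60 signals on these 2 arrays. The share was not worked out for other pairs of arrays, so it has no reference here. The differences of named genes are given below also without saline array 2 where leaving it out moved them by over 1.5 times.

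**Figure D1:**
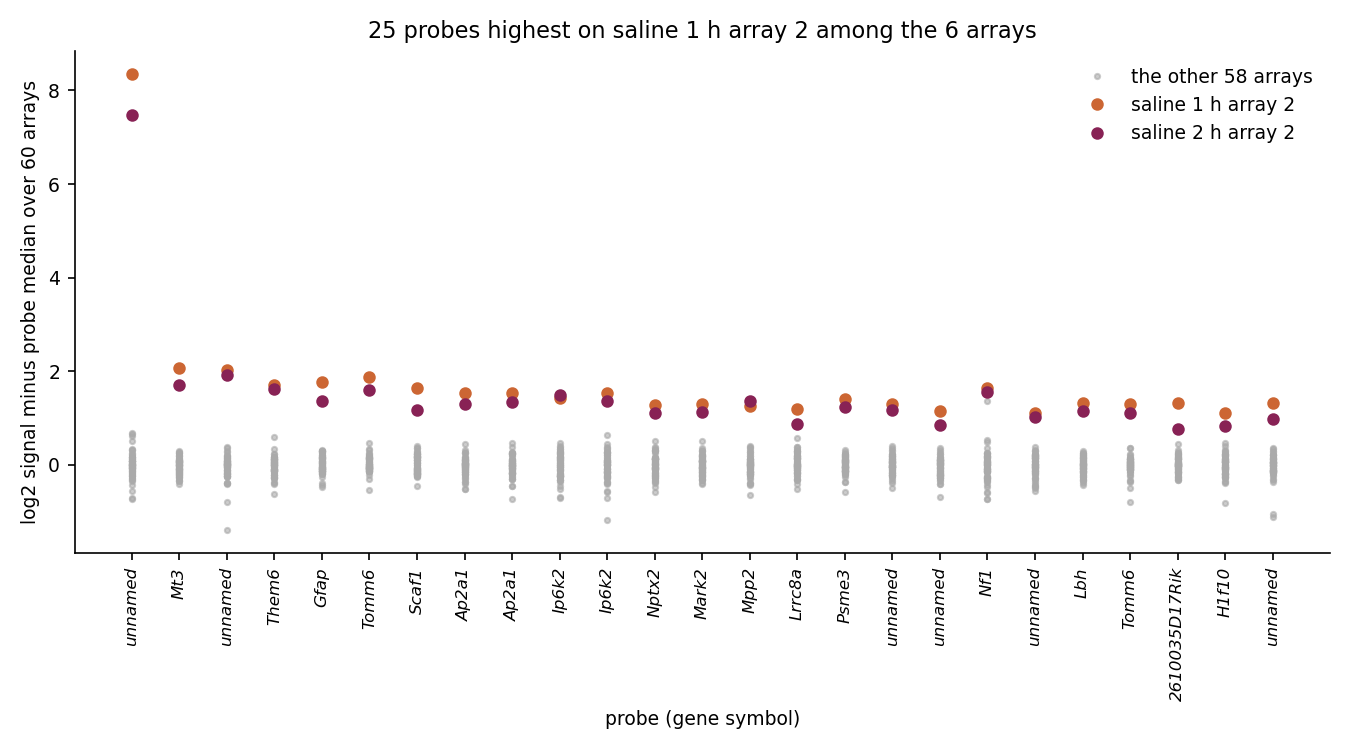
Log2 signal of 25 probes minus the probe's median over all 60 arrays, by probe; orange and purple points are saline 1 h array 2 and saline 2 h array 2, grey points the other 58 arrays. In all 25 probes the 2 coloured points are the highest of 60, and the first, unnamed probe reached 15.29 and 14.41.

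Between saline-treated and naive mice at 1 h, 0 of 45281 probes (0%) passed an adjusted p under 0.05 in limma's test, Benjamini-Hochberg adjusted over all probes. The smallest adjusted p was 1.00 after rounding. At an unadjusted p under 0.05 there were 816 probes (1.80%), 449 higher and 367 lower in saline. That share is below the 0.05 that this threshold itself allows when no probe differs. The methods' thresholds (unadjusted p under 0.0005, with a log2 difference of more than 0.3 in either direction) were passed by 4 probes (0.00883%), 2 in each direction. The paper put these cut-offs on the drug factor of an ANOVA over all time points. Here they were put on a contrast at 1 h only, so the count cannot be set beside the paper's. In 1372 probes (3.03%) every saline array was above every naive array, and in 1357 (3.00%) every saline array was below. With 1 probe per gene, as in the lists below, the shares were 3.31% above and 2.54% below. The shares set beside the lists are those of all probes. For 3 against 3 arrays without a difference, the probability of no overlap in either direction is 0.1, so these shares were not raised. The median difference over all probes was -0.00 on the log2 scale. The median standard error of a difference was 0.20, so that the 95% interval of a typical probe reached 0.40 to either side. The SD of the differences over all probes was 0.17, below that standard error. Intervals given with single genes are these unadjusted 95% intervals of limma's fit, and every adjusted p rounded to 1.00. A single probe of median standard error would have needed a difference of 1.11 to pass the adjusted threshold, and one among the brighter 50% of the probes 1.03. Probes with a smaller standard error would have needed less. In bulk tissue, a change in the number of cells of a type and in the RNA per cell cannot be told apart.

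The 4 probes past the methods' thresholds were dim, with mean log2 signals below that of the median probe (6.94). *Glycam1*, a mucin-like ligand of L-selectin, had log2 signals of 6.31, 6.76 and 6.15 in naive mice and of 7.10, 7.16 and 7.11 in saline-treated mice. The groups did not overlap, and the difference was 0.72 (95% interval 0.36 to 1.08). The noncoding transcript *A530053G22Rik* had 5.88, 6.10 and 5.78 in naive mice and 6.22, 7.08 and 6.76 in saline-treated mice, a difference of 0.77 (0.37 to 1.16). The other 2 probes carried no gene name and differed by -0.70 and -0.62. Without saline array 2, 0 probes passed these thresholds. Without background correction the difference was 0.34 for *Glycam1* and 0.35 for *A530053G22Rik*. With the slide as a block it was 0.48 for *Glycam1* and 0.78 for *A530053G22Rik*.

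Among the 25 genes of lowest nominal p, none of which passed the adjusted threshold, 20 were higher and 5 lower in saline, and 20 of the 25 had a mean log2 signal below 8. Among the dim ones, *Clic3*, an intracellular chloride channel protein, was at 6.86, 6.03 and 6.33 in naive mice and at 7.27, 7.18 and 7.28 in saline-treated mice (difference 0.84). *Ubash3b*, a phosphatase of the T-cell ubiquitin ligand family, was at 6.43, 6.84 and 6.49 and at 5.71, 6.02 and 6.04 (difference -0.66). Without background correction these differences were 0.41 and -0.31. *Arsg*, a lysosomal sulfatase, had 8.53, 8.50 and 8.30 in naive mice and 9.24, 8.93 and 8.98 in saline-treated mice, a difference of 0.60 (0.25 to 0.96), and of 0.35 with the slide as a block. *Tcn2*, a carrier of vitamin B12, had 8.10, 8.06 and 7.53 against 8.43, 8.42 and 8.39, a difference of 0.52 (0.18 to 0.86), and of 0.30 with the slide as a block. *Tmem25*, a membrane protein of the immunoglobulin family, was the brightest of the 25, with 12.30, 12.75 and 12.60 against 12.25, 12.09 and 12.19, a difference of -0.38 (-0.60 to -0.15). Saline was above naive for *Arsg* and *Tcn2* and below it for *Tmem25* on each array. *Ap2a1* was in this set through saline array 2: its difference was 0.73, and 0.17 without that array. *Nfkbia*, also in this set, is described with the glucocorticoid receptor targets.

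**Figure D2:**
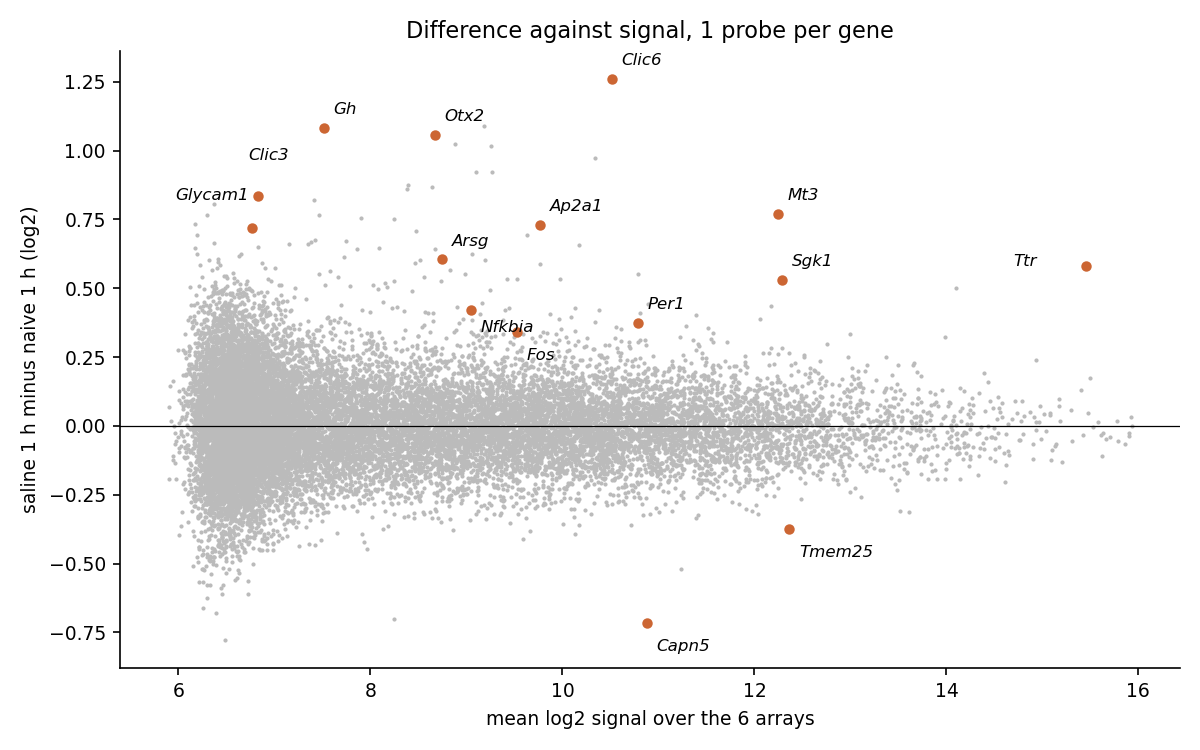
Difference between saline-treated and naive mice at 1 h (log2, vertical) against the mean log2 signal over the 6 arrays (horizontal), 1 probe for each of 19057 genes, with 15 genes marked in orange. Among the marked genes *Clic6* (1.26), *Gh* (1.08) and *Otx2* (1.06) lie highest. *Capn5* lies lowest at -0.72, and would be at -0.03 without saline array 2.

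Among the transcription factors that neuronal activity induces, no member passed the adjusted threshold. *Fos*, which pairs with Jun proteins in the AP-1 complex, had log2 signals of 9.09, 9.55 and 9.42 in naive mice and of 9.75, 9.78 and 9.55 in saline-treated mice. The lowest saline array lay only just above the highest naive array. The difference was 0.34 (standard error 0.25, 95% interval -0.17 to 0.85), 0.30 without saline array 2, and -0.08 with the slide as a block in the fit. *Fos* was high in both groups at 1 h: its mean in naive mice was 9.35, then 8.87, 8.25 and 8.21 at the later times, and in saline-treated mice 9.69, then 8.85, 8.25 and 8.15. The level at 1 h was above that of the later times in naive mice too.

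Sequence before the start of *Fos* and of the glucocorticoid targets *Per1* and *Sgk1* is shown because it holds the letters of elements known to act in activity-dependent and glucocorticoid-dependent induction. The stretches come from RefSeq promoter windows of mouse build GRCm38.p6, on the plus strand, and hold only bases before the annotated start. In *Fos* (chr12:85473777-85473876) and in 1 of the 2 windows of *Per1* (chr11:69099973-69100072) capitals mark TGACGT, the core of the cAMP response element, and in 1 of the 6 windows of *Sgk1* (chr10:21993658-21993757) they mark a match to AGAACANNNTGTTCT, the palindromic glucocorticoid response element.
Fos: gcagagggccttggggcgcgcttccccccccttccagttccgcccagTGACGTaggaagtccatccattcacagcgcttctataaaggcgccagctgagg
Per1: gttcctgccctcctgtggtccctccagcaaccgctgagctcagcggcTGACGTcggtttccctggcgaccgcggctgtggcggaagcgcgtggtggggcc
Sgk1: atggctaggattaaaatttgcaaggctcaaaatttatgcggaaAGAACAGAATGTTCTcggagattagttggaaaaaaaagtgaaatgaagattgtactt
The core began 66 bases before the start in *Fos* and 132 bases before it in *Per1*. The glucocorticoid element began 189 bases before the start of that *Sgk1* window. Both strands of the 250 bases before each start were searched. TGACGT was found for 7.29% of the 27025 genes with a window, for 7 of 21 activity-induced transcription factors, for 11 of 18 activity-induced effectors and for 6 of 31 glucocorticoid receptor targets with a window. The glucocorticoid element in this exact form was found in 3 of 32851 windows (0.00913%), *Sgk1* being the only holder among those 31 targets. A match is a string of letters and not a measured site.

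As a whole the list of activity-induced transcription factors, *Fos* included, differed little, while single members differed in either direction. Of 28 listed, 27 had a probe, 14 were higher and 13 lower in saline, and the median difference was 0.01, against 0.00 over all genes. The groups did not overlap, with saline higher, for 3 of the 27 (*Fos*, *Jund* and *Ier5*) and with saline lower for 0, where 3.03% and 3.00% of all probes did so. *Jund*, an AP-1 partner of Fos, had 7.21, 7.38 and 7.23 in naive mice and 7.51, 7.88 and 7.47 in saline-treated mice (difference 0.35, -0.12 to 0.82, and 0.22 without saline array 2). *Ier5*, an immediate early gene, was dim and differed through saline array 3, at 7.42, while the other arrays lay between 6.31 and 6.64. *Cebpb*, a leucine zipper factor, was the only member with a nominal p under 0.05 (difference 0.32, 0.01 to 0.62). Its naive arrays lay between 10.08 and 10.12, and its saline arrays at 10.07, 10.69 and 10.49, so saline array 1 was at the naive level, and without saline array 2 the difference was 0.18. *Junb* and *Fosb*, further AP-1 members, differed by 0.30 each, with overlapping arrays, and by 0.13 and 0.10 without saline array 2. *Npas4*, a factor specific to neuronal calcium signaling, differed by -0.28 (-0.72 to 0.15).

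The 5 genes whose signal was most like that of *Fos* over the 60 arrays, with all groups and times pooled, were *Egr1* (Pearson r = 0.83), *Egr2* (0.80), *Arc* (0.80), *Egr4* (0.76) and *Ppp1r3c* (0.74). The points share slides and time points, and the correlation is a description. Between saline-treated and naive mice at 1 h these genes did not move as one. *Egr1*, a zinc finger factor, was at 13.57, 13.48 and 13.62 in naive mice and at 13.66, 13.54 and 13.64 in saline-treated mice, a difference of 0.06 (95% interval -0.28 to 0.39), and of 0.09 without saline array 2. *Egr4* was at 10.45, 10.72 and 10.45 and at 11.05, 10.47 and 10.97, a difference of 0.29 (-0.04 to 0.63), with saline array 2 among the naive values and a difference of 0.47 without it. *Arc*, a synaptic protein that shapes AMPA receptor traffic, was at 10.65, 10.31 and 10.40 and at 11.16, 10.97 and 10.16, a difference of 0.31 (-0.14 to 0.76), of 0.20 without saline array 2, and of -0.16 with the slide as a block. Saline array 3 held the lowest *Arc* signal of the 6. *Egr2* and the glycogen-targeting phosphatase subunit *Ppp1r3c* differed by 0.02 and -0.10, and by -0.03 and -0.18 without saline array 2.

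Among the effectors that neuronal activity induces (25 of 26 with a probe), 17 were higher and 8 lower in saline, and the median difference was 0.08. The groups did not overlap for 4 of 25, all higher in saline, where 3.03% of all probes did so in that direction. *Sik1*, a salt-inducible kinase that restrains CREB coactivators, had a mean of 6.91 (SD 0.11) on the naive arrays, the lowest at 6.78, and 7.20, 7.32 and 7.56 in saline-treated mice, a difference of 0.45 (0.06 to 0.85). It was 0.47 without saline array 2 and 0.12 with the slide as a block. *Gadd45g*, a growth arrest and DNA damage gene, had 11.25, 11.33 and 11.18 against 11.62, 11.43 and 11.53, a difference of 0.28 (-0.01 to 0.56). *Vgf*, a neuropeptide precursor, had 11.35, 11.18 and 11.28 against 11.55, 11.71 and 11.44, a difference of 0.30 (-0.02 to 0.61). All saline arrays lay above all naive arrays in these genes, and none passed the adjusted threshold. *Amigo3*, an adhesion protein, also did not overlap (difference 0.30). *Nptx2*, which clusters AMPA receptors, differed by 0.42 with saline array 2 and by -0.10 without it. Of the MAP kinase phosphatases and other feedback genes, 7 of 12 were higher (median 0.08), among them *Dusp5* (0.29, -0.01 to 0.59, and 0.17 without saline array 2) and *Dusp4* (0.25, -0.02 to 0.52, and 0.15 with the slide as a block).

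Of the glucocorticoid receptor targets more members were higher than lower in saline. Of 35 listed, 34 had a probe, 28 of them were higher and 6 lower in saline, the median difference was 0.10 (0.14 without saline array 2, and 0.12 with the slide as a block) and the range -0.10 to 0.53. Over all genes the median was 0.00 and 50.3% were higher. The mean log2 signal of the 34 genes was 9.67 to 9.71 on the naive arrays and 9.74 to 9.90 on the saline arrays. The members share arrays and are not independent, so these counts are a description. The list was also chosen with earlier results of these data known. It holds transcripts that the paper reports as responsive to the drugs in this same experiment, such as *Fkbp5*, *Per1*, *Sgk1* and *Plin4*. Of the 34, 0 passed the adjusted threshold and 4 had a nominal p under 0.05, all higher in saline, where 1.80% of all probes had one. The groups did not overlap for 1 of the 34, a share like the 3.03% of all probes with saline higher.

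*Nfkbia*, the inhibitor of NF-kappaB, had the lowest nominal p of the list. Its log2 signals were 9.03, 8.62 and 8.85 in naive mice and 9.42, 9.01 and 9.34 in saline-treated mice. Saline array 2 lay just below the highest naive array, and the difference was 0.42 (standard error 0.14, 95% interval 0.13 to 0.71). It was 0.55 without saline array 2 and 0.49 with the slide as a block. A dimmer probe of *Nfkbia* differed by 0.03. *Sgk1*, a kinase that regulates ion channels and transporters, had 11.89, 12.24 and 11.93 in naive mice and 12.55, 12.20 and 12.90 in saline-treated mice. Here too saline array 2 fell within the naive values, while saline arrays 1 and 3 were above all of them. The difference was 0.53 (standard error 0.22, 0.09 to 0.97), 0.70 without saline array 2 and 0.54 with the slide as a block. *Per1*, a clock gene that stress also induces, had 10.52, 10.44 and 10.83 in naive mice and 11.19, 10.94 and 10.78 in saline-treated mice, a difference of 0.37 (standard error 0.15, 0.08 to 0.67), and 0.32 with the slide as a block. Its 2 dimmer probes differed by 0.12 and -0.00. *Tob2*, an antiproliferative regulator of mRNA decay, had 8.35, 8.31 and 8.67 against 8.88, 8.59 and 9.09, a difference of 0.41 (0.01 to 0.81), and 0.10 with the slide as a block. In each of these 4 genes 1 saline array overlapped the naive range.

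*Plekhf1*, a lysosomal adaptor, was the only target without overlap, at 7.54, 7.42 and 7.46 in naive mice and 8.11, 7.66 and 7.78 in saline-treated mice (difference 0.38, -0.09 to 0.85). The targets most used as readouts of the receptor differed by less. *Fkbp5*, a cochaperone that restrains the receptor, was at 8.80, 9.11 and 9.11 and at 9.16, 9.08 and 9.31, a difference of 0.18 (-0.16 to 0.51). *Tsc22d3* (GILZ) was at 11.32, 11.43 and 11.36 and at 11.40, 11.73 and 11.53, a difference of 0.18 (-0.15 to 0.51), 0.09 without saline array 2, and 0.44 with the slide as a block. Among the receptors, the hormone CRH and its receptors, and the chaperones of the receptor complex (11 of 12 with a probe), 4 were higher, the median was -0.01 and no groups were apart. The mineralocorticoid receptor *Nr3c2* was dim and differed by 0.35 (-0.04 to 0.74), and by 0.12 with the slide as a block. *Hsd11b1*, the enzyme that regenerates active glucocorticoid in cells, differed by 0.14 (-0.14 to 0.42). The hormone *Crh* was dim and had the lowest difference of the list (-0.38, -0.84 to 0.07, and -0.24 without saline array 2), and 7 of the 11 members were lower.

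At later times the differences between saline and naive were smaller for *Sgk1*, *Nfkbia*, *Per1* and *Fos*. Except for *Fos*, these genes were named by a low nominal p at 1 h. Smaller differences at other times can follow from that choice alone. For *Sgk1* they were 0.35 at 2 h, -0.17 at 4 h and -0.12 at 8 h, and for *Nfkbia* 0.08, 0.04 and 0.01. For *Per1* they were 0.08, 0.13 and 0.29, and for *Fos* -0.02, -0.01 and -0.06. The list medians did not fall in the same way. That of the glucocorticoid receptor targets was 0.10 at 1 h and 0.09, 0.05 and 0.07 at 2, 4 and 8 h. That of the activity-induced effectors was 0.08 at 1 h, then 0.04, 0.08 and 0.08. Whether the difference at 1 h was unlike the mean of the later ones was tested over all probes. Of 45281 probes 0 (0%) passed an adjusted p under 0.05 in limma's test, with 868 at an unadjusted p under 0.05. The 1 h difference exceeded the later mean by 0.38 for *Nfkbia* (standard error 0.17), by 0.51 for *Sgk1* (0.25), by 0.50 for *Sik1* (0.23) and by 0.37 for *Fos* (0.29), and none of these passed. For *Nfkbia*, *Sgk1* and *Sik1* these values reuse the 1 h difference by which the gene was named. In naive mice the level of *Sgk1* moved with the time point, from 12.02 at 1 h to 12.85 at 8 h. That step is larger than the one between saline and naive at 1 h. In saline-treated mice *Sgk1* was at 12.55, 12.20 and 12.90 at 1 h. It was at 12.03, 11.61 and 12.26 at 4 h and at 12.98, 12.43 and 12.79 at 8 h.

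**Figure D3:**
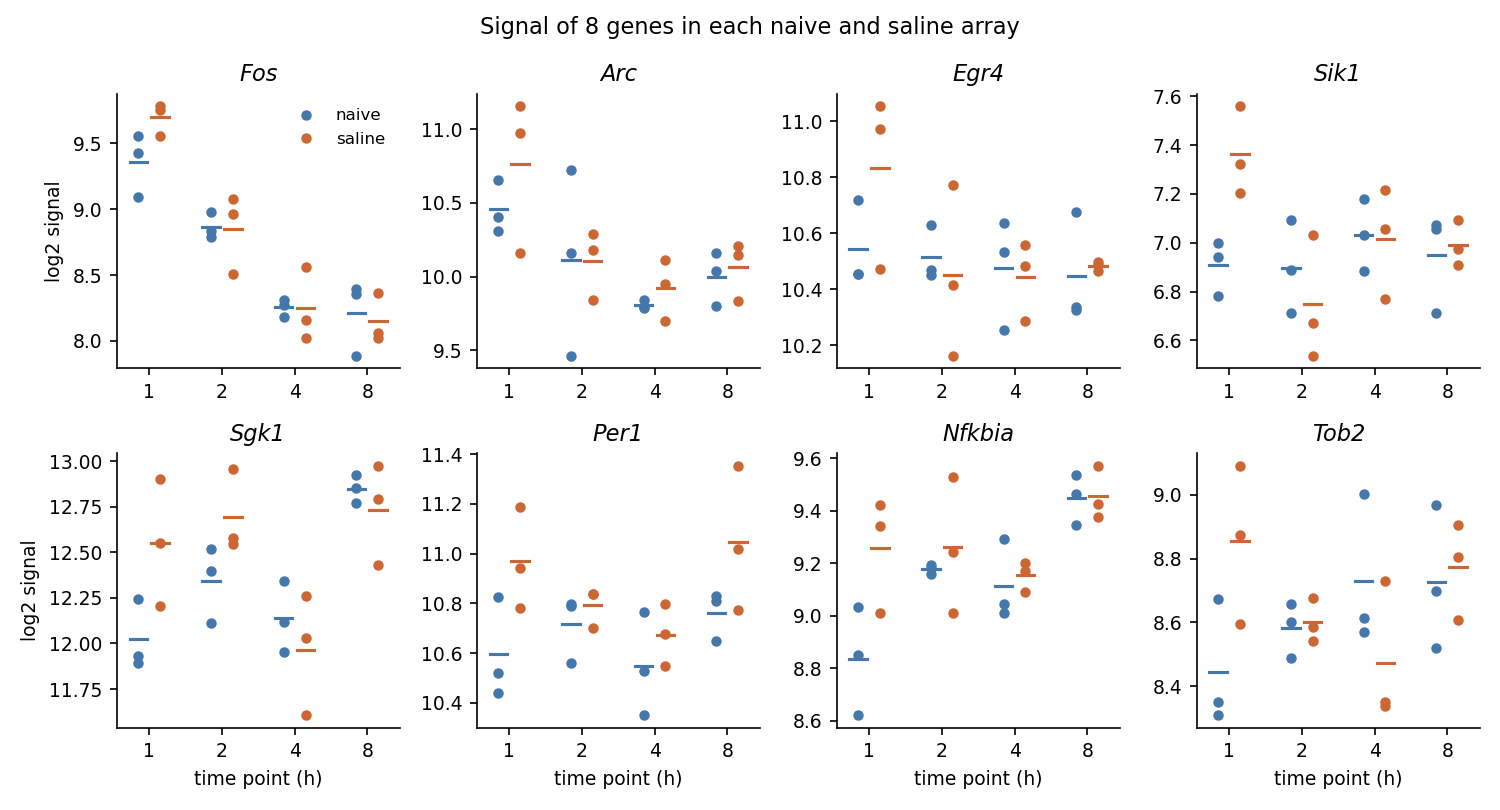
Log2 signal of 8 genes on each array of naive (blue) and saline-treated (orange) mice at 1, 2, 4 and 8 h; points are arrays, bars the means of 3. At 1 h the *Sik1* and *Fos* points of the groups do not overlap, and in *Sgk1*, *Per1*, *Nfkbia* and *Tob2* 1 saline array lies within the naive range.

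In the list of cAMP and CREB signaling genes 9 of 14 were higher (median 0.11, and 0.0021 with the slide as a block), among them *Sik1*. In that of growth arrest genes 11 of 16 were higher (median 0.10, and 0.068 with the slide as a block), among them *Gadd45g*. These medians were as large as that of the glucocorticoid receptor targets, and both lists share members with those above. Of 20 clock genes 10 were higher (median 0.02). *Npas2*, a partner of the clock factor BMAL1, was at 8.79, 8.63 and 8.90 in naive mice and at 8.52, 8.28 and 8.58 in saline-treated mice, a difference of -0.31 (-0.77 to 0.15). The RNA-binding proteins and Clk kinases that respond to temperature differed by 0.00 to 0.15 in 6 genes.

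Of 15 genes of the unfolded protein response 13 were lower in saline (median -0.09, and -0.12 without saline array 2). The mean of the list was 9.54 to 9.61 on naive arrays and 9.41 to 9.49 on saline arrays. At 2, 4 and 8 h the median was 0.07, 0.03 and -0.01. The members share arrays and are not independent. The groups did not overlap, with saline lower, for 2 of the 15, where 3.00% of all probes did so. *Pdia4*, a disulfide isomerase of the endoplasmic reticulum, was at 10.14, 10.12 and 10.30 in naive mice and at 9.81, 9.74 and 9.93 in saline-treated mice. Its groups did not overlap, and the difference was -0.36 (-0.64 to -0.08), and -0.38 with the slide as a block. *Trib3*, a pseudokinase induced by this response, differed by -0.29 (-0.70 to 0.13), and its groups were barely apart. Of 14 heat shock genes 9 were lower (median -0.08, and -0.17 with the slide as a block), and 5 were higher, while 50.3% of all genes were higher. *Hsph1*, a large heat shock protein, was at 12.86, 12.93 and 12.95 in naive mice and at 12.76, 12.68 and 12.78 in saline-treated mice, a difference of -0.17 (-0.42 to 0.07). *Chordc1*, a partner of HSP90, differed by -0.17 as well, and by -0.09 without saline array 2. *Dnaja1*, a cochaperone of HSP70, had the lowest difference of the list (-0.35, and -0.54 without saline array 2), and the inducible HSP70 gene *Hspa1b* the highest (0.25, -0.31 to 0.82, and -0.06 under the slide block). None of these passed the adjusted threshold.

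Of 24 cytokine and NF-kappaB response genes 14 were higher (median 0.03, which was 0.11 without saline array 2 and -0.0038 under the slide block). The groups did not overlap for 4 with saline higher (*Ccl7*, *Vcam1*, *Ch25h* and *Zfp36*) and for 1 with saline lower (*Ccl4*), where 3.03% and 3.00% of all probes did so, and 8 of the 24 were dimmer than the median probe. *Nfkbia* is also a member and was the only one with a nominal p under 0.05. The chemokine *Ccl7* and the cholesterol hydroxylase *Ch25h* were dim and differed by 0.39 and 0.34, and by 0.38 and 0.08 with the slide as a block. *Stat3*, the factor downstream of IL-6, differed by -0.22 (-0.49 to 0.04). Of the glutamate receptor genes 7 of 19 were higher (median -0.05), with *Grik5*, a kainate receptor subunit, at 0.34 (0.04 to 0.64), and at 0.16 without saline array 2. Of 8 GABA-A receptor subunits 3 were higher (median -0.06).

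**Figure D4:**
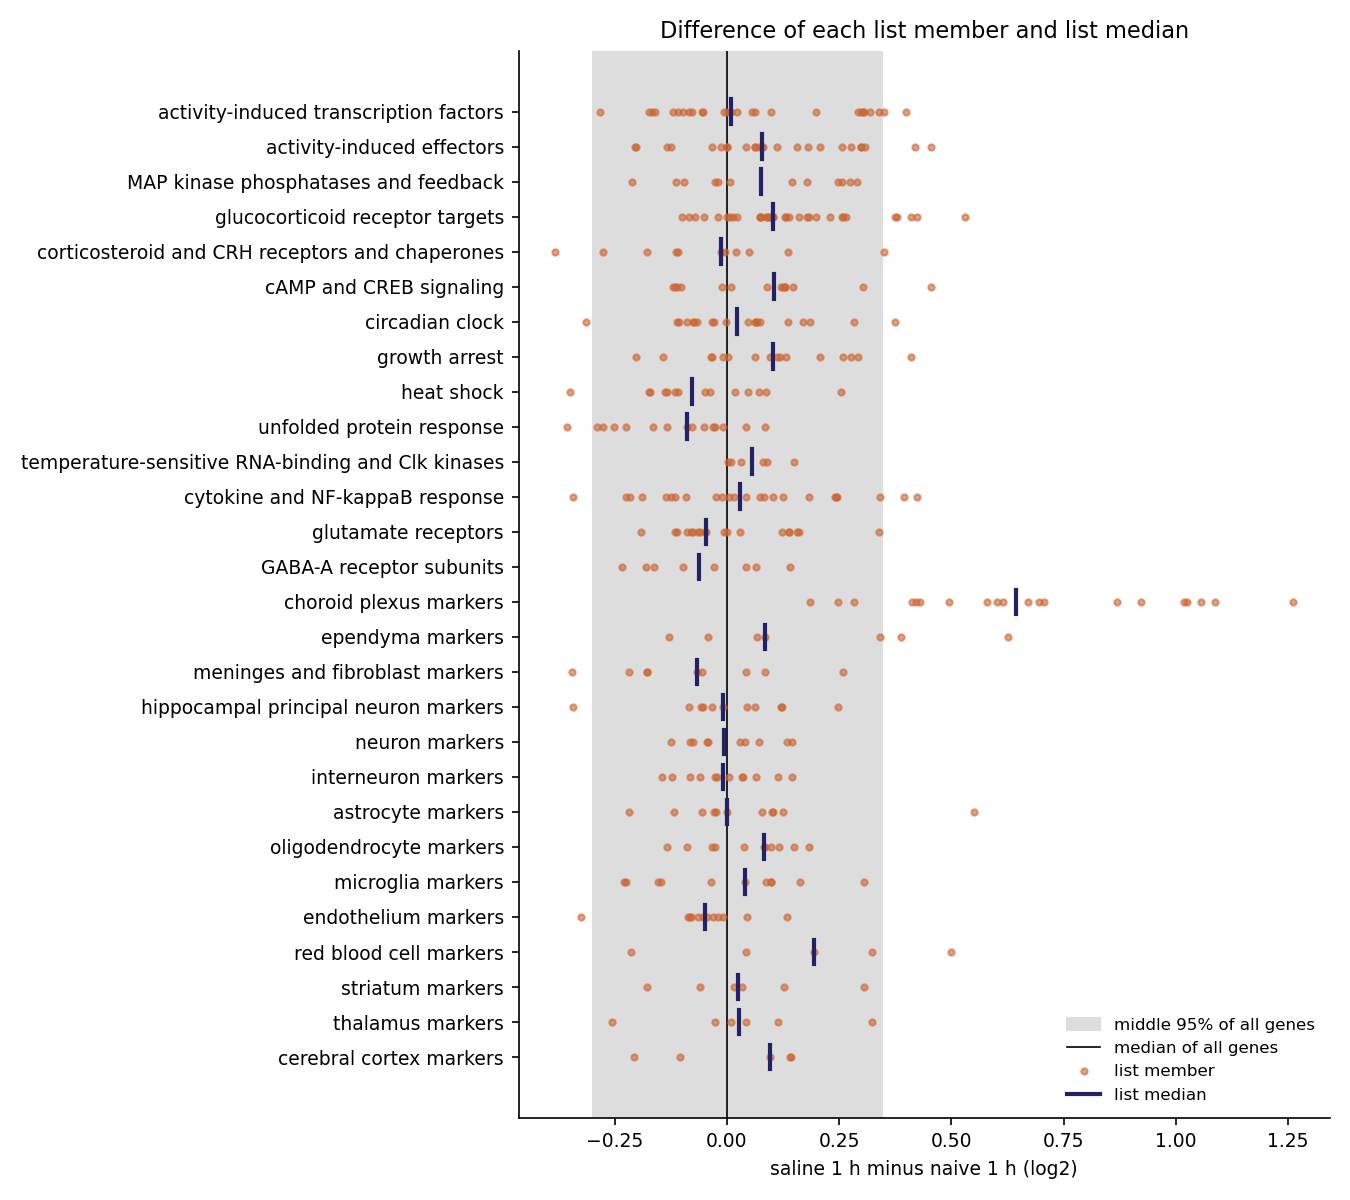
Difference between saline-treated and naive mice at 1 h (log2) for every member of 28 gene lists (orange points), with the list median (dark bar), the median of all genes (line) and the middle 95% of all genes (grey band). All 20 choroid plexus markers lie to the right of the line, with a median of 0.64. The band shows single genes and is no measure for list medians.

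The choroid plexus transcripts are given apart, as markers of a tissue that borders the hippocampus. All 20 markers with a probe (of 24 listed) were higher in saline, by 0.18 to 1.26, with a median of 0.64. *Ttr* was at 15.71, 14.69 and 15.08 in naive mice and at 15.94, 15.77 and 15.51 in saline-treated mice. Its signal was near the top of the scale, where quantile normalization gave several arrays the same value, such as 15.51. The difference was 0.58 (standard error 1.07, 95% interval -1.57 to 2.73), and the groups overlapped. *Clic6*, an epithelial chloride channel protein, was at 10.84, 9.05 and 9.76 in naive mice and at 12.03, 10.70 and 10.70 in saline-treated mice, a difference of 1.26 (-0.79 to 3.31). *Kl* (klotho), which the choroid plexus secretes, was at 9.55, 9.13 and 9.18 and at 10.28, 9.93 and 9.73, a difference of 0.69 (-0.47 to 1.86). *Otx2*, a homeobox factor of the choroid plexus, was at 8.72, 7.91 and 7.80 and at 9.93, 8.82 and 8.84, a difference of 1.06 (-0.17 to 2.28). The groups did not overlap for 4 of the 20, *Kl*, *Otx2*, *Sostdc1* and *Ace* (3.03% of all probes, with saline higher), and saline array 1 was the highest of the 6 in each of them. The potassium channel subunit *Kcne2* and the folate receptor *Folr1* differed by 1.02 and 0.87, with overlap.

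None of the 20 had a nominal p under 0.05 in the fit of all 60 arrays, whose spread includes arrays that differ widely in these markers. With only the 6 arrays in the fit, limma's nominal p was 0.00233 for *Kl* and 0.0222 for *Ttr*, and no probe of the array passed the adjusted threshold. With the slide as a block the median of the markers was 0.01, *Ttr* differed by -0.91 and *Kl* by -0.09. The mean of the 20 markers was 8.56 to 9.35 on the naive arrays and 9.22 to 10.11 on the saline arrays of 1 h. At 2 h it was 9.18 to 9.86 in naive and 9.05 to 9.28 in saline-treated mice, where the ranges overlapped and saline had the lower mean. At 4 h the naive arrays lay at 7.76 to 7.88, with *Ttr* at 11.08 to 12.17. The marker mean as a covariate left *Nfkbia* at 0.41, *Per1* at 0.39, *Fos* at 0.34 and *Sik1* at 0.47, while *Sgk1* went from 0.53 to 0.41. Under the same covariate *Arsg* went from 0.60 to 0.47, *Clic3* from 0.84 to 0.72 and *Tcn2* from 0.52 to 0.46. The cilia gene *Dynlrb2* went from 0.63 to 0.40, and *Ubash3b* moved away from 0, from -0.66 to -0.73.

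**Figure D5:**
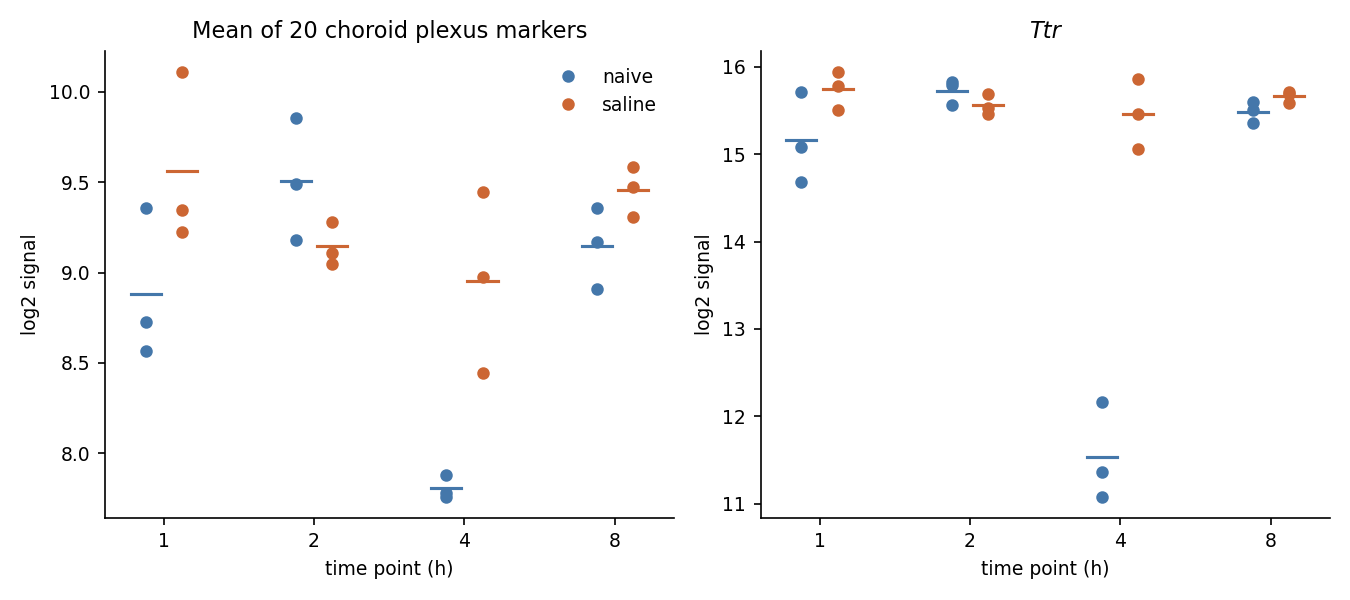
Mean log2 signal of 20 choroid plexus markers (left) and log2 signal of *Ttr* (right) on each naive (blue) and saline (orange) array at 1, 2, 4 and 8 h; bars are means of 3. At 1 h the saline mean is above the naive mean, at 2 h below it, and the naive arrays of 4 h are lowest in both panels.

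Other cell types and neighbouring tissue are given by their markers. Of 7 ependymal markers 5 were higher and 2 lower in saline, with a median of 0.08, and of 0.33 without saline array 2. The lower ones were *Foxj1* (-0.04) and *Ak7* (-0.13). The cilia gene *Dynlrb2* had the highest difference of the list (0.63, 0.12 to 1.13, and 0.44 with the slide as a block). It was at 8.90, 9.12 and 8.20 in naive mice and at 9.59, 9.34 and 9.18 in saline-treated mice. Of 9 meningeal and fibroblast markers 6 were lower (median -0.07), with *Col1a2*, a fibrillar collagen, at -0.34 without overlap. The median differences of the lists for principal neurons, neurons, interneurons, astrocytes, oligodendrocytes, microglia and endothelium lay between -0.05 and 0.08, and between -0.06 and 0.05 without saline array 2. Of 12 endothelium markers 10 were lower (median -0.05, which was 0.04 without saline array 2 and -0.14 under the slide block), with the tight junction gene *Cldn5* at -0.32 (-0.74 to 0.10, and -0.05 without saline array 2). *Gfap* differed by 0.55 with saline array 2 and by -0.11 without it, and *Mt3* by 0.77 and 0.03. Of 11 microglia markers 6 were higher and 5 lower in saline. *P2ry13*, on that list, differed by -0.23 without overlap, where 3.00% of all probes had saline lower without overlap. *C1qb*, a complement gene of microglia, had the highest difference of the list (0.30, 0.03 to 0.58). It was 0.22 without saline array 2 and 0.08 with the slide as a block. Of 5 red blood cell transcripts 4 were higher (median 0.19), *Hba-a1* (alpha globin) by 0.50 (-0.05 to 1.05), and by 0.26 without saline array 2. Striatal, thalamic and cortical markers differed by medians of 0.02, 0.03 and 0.10. The pituitary hormone *Gh*, singled out after its values were seen, was at 7.13, 6.88 and 6.91 in naive mice and at 9.21, 7.60 and 7.36 in saline-treated mice, where saline array 1 was also highest in choroid plexus markers. The difference of *Gh* was 1.08 (nominal p 0.10 in limma's test). It was 1.21 with the choroid plexus marker mean as a covariate and 1.80 with the slide as a block. In naive mice of 2 h its mean was 10.05. The part of these tissues in the other results was not tested.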

How the data were processed

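RNA of 60 hippocampal pools was hybridised to Illumina MouseWG-6 v2 arrays. The authors deposited intensities of each probe on a linear scale without normalization, used here, and a table of normalized log2 values, used as an alternative. Intensities of the 60 arrays were corrected by normexp (offset 50), quantile normalized and log2-transformed, with all probes kept, in R 4.3.3. Group means were fitted with limma 3.58.1 to all 60 arrays, and p-values were Benjamini-Hochberg adjusted over 45281 probes. A gene is given by its probe of highest mean signal. Symbols came from the platform annotation (34885 probes with 1 symbol, 18 with several, 10378 with none), and 27 of 408 list entries had no probe of their name. Genes were named by lowest nominal p overall (25) and in each of 28 lists (up to 4), with choroid plexus and tissue markers and the 5 genes most like *Fos*. Members and lists were chosen with earlier results of these data known, and further list members, *Gh* and probes high or low on saline array 2 were added after their values were seen. The model was tested on simulated data. The alternatives changed the background correction, normalization, probe filter, variance model, arrays fitted, blocks and covariate. The number of arrays limits the precision. Striatal samples were not analysed here.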

Additional observations from a re-analysis of the deposited data

How the results depend on the processing

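Under all 20 alternative settings 0 probes passed limma's adjusted threshold in either direction, with 241 (brighter 50% of the probes) to 1603 (high-background arrays left out) probes at an unadjusted p under 0.05. The smallest adjusted p was 0.516, without saline array 1. The difference between 1 h and the later times also gave 0 probes where it could be fitted, which fits of the 6 arrays alone do not allow. The count past the methods' thresholds, 4, became 7 with a normexp offset of 16, 0 in the brighter 50% of the probes, 14 with the slide as a block, 7 with ordinary variances, 1 in the fit of the 6 arrays, 13 with high-background arrays left out and 0 with both arrays 2 of saline at 1 h and 2 h left out (an alternative chosen after seeing the data). Leaving out 1 array gave 0 to 10. With the replicate block the count was 5, with 0 probes past the adjusted threshold and 797 at an unadjusted p under 0.05. Deviations of same-numbered arrays correlated by 0.29, 0.04 and 0.02, so the numbers were not taken as pairs. Over the 60 arrays, deviations from the group mean correlated by 0.19 on average between arrays of different groups on the same slide. Between arrays of different groups on other slides the average was -0.02. The main fit held no slide term, and no slide held both a naive and a saline array of 1 h.

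With the slide as a block *Fos* became -0.078, *Arc* -0.16, *Ttr* -0.91, *Kl* -0.086, *Clic6* -0.20, *Folr1* -0.088 and *Hspa1b* -0.062, and the choroid plexus median 0.015. With the choroid plexus marker mean as a covariate that median was -0.0090, *Ttr* -0.70, *Kl* -0.037, *Clic6* -0.048, *Folr1* -0.028 and *Ace* -0.016. With both arrays 2 left out *Egr2* was -0.033, *Nptx2* -0.10 and *Gfap* -0.11. Leaving out single arrays, *Egr2* lay between -0.091 and 0.19, *Nptx2* between -0.10 and 0.69, *Gfap* between -0.11 and 0.99, and the median of the activity-induced transcription factors between -0.023 and 0.083. The causes were not tested. Of 1330 values of 67 genes, 1309 kept their direction and 21 reversed, and none passed the adjusted threshold. Of 560 values of list medians, 49 moved beyond the spread between arrays. Without saline array 2 the oligodendrocyte median went from 0.084 to -0.056 and the endothelium median from -0.049 to 0.038, and under the slide block the meninges median went from -0.066 to 0.091.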
